A study of Mus musculus with 12 samples.

Results

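The EphB receptors and ephrin-B ligands were followed in RNA sequencing libraries of mouse mammary epithelial cells in which an activated Smoothened was, or was not, switched on. The members are 5 receptor genes (Ephb1, Ephb2, Ephb3, Ephb4 and Ephb6) and 3 ligand genes (Efnb1, Efnb2 and Efnb3), chosen by name. The choice was made with earlier results of these data known. For each, the row of the deposited count table that names a single locus and holds the symbol was taken. All 8 were found among 20114 such rows, and all 8 were among the 14039 loci with enough counts to be tested. Mean counts over the libraries ran between 28.8 for Efnb3 and 3203 for Efnb2. Values below are counts relative to library size (CPM), scaled by the trimmed mean of M values, unless a level per kilobase is named.

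Eph receptors are receptor tyrosine kinases, and ephrin-B ligands are transmembrane proteins, so both partners sit on cell surfaces and signal at cell contacts. Binding sends a forward signal into the receptor-bearing cell and a reverse signal into the ligand-bearing cell, and the pathway is known for keeping cell populations apart at tissue boundaries. In the mouse mammary gland, EphB4 has been described mostly in myoepithelial cells and ephrin-B2 mostly in luminal cells. The same pair is the classical mark of venous and arterial endothelium.

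The 12 libraries form 3 groups of 4, all of mammary epithelial cells isolated by fluorescence-activated sorting from females aged 9 weeks on a mixed 129X1/SvJ, C57BL/6 and Swiss Webster background. Recombined libraries came from mT-mG/SmoM2;MMTV-Cre cells that had turned green (EGFP) and are labelled SmoM2 positive. Unrecombined libraries came from red (tdTomato) cells of the same genotype, labelled SmoM2 negative. Wild type libraries came from red cells of mT-mG/SmoM2;+ mice, which carry both alleles but no Cre. SmoM2 is a constitutively active form of Smoothened, the signal transducer of the Hedgehog pathway. mT-mG is a reporter that changes from red to green in cells where Cre has acted. The Cre is driven by the mouse mammary tumour virus promoter, so the recombined group holds the cells in which that promoter had been active, selected by colour. Which animals gave which library is not stated in the labels, so p-values measure the spread between these libraries, which may be in part technical.

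Total counts lay between 19581993 and 34779433. Transcripts of Smo, whose row also holds AK053708, were at 49.1, 51.9, 56.9 and 74.7 CPM in recombined libraries, at 28.9, 26.8, 29.0 and 36.8 CPM in unrecombined libraries, and at 35.2, 18.7, 31.2 and 28.2 CPM in wild type libraries, highest in all recombined libraries as the labels have it. Whether reads of the SmoM2 allele fall in this row is not given in the sources used here. Hedgehog targets rose in recombined against wild type libraries, by log2 fold changes of 3.58 ± 0.443 (SE) for Ptch1, 3.66 ± 0.533 for Hhip and 2.57 ± 0.450 for Gli1, whose row also holds Arhgap9. Several libraries stood apart. In a principal component analysis, whose leading component took 31.4% of the variance, recombined 3 and 4 lay at -140.2 and -101.9, while the others lay between -30.2 and 48.8. Recombined 3 and 4 also had 14256 and 14601 loci with counts, against 15289 to 16814 in the others. Salivary gland transcripts summed to between 608 and 51586 CPM in recombined 1 and 2, unrecombined 1 and 2 and wild type 2, and to between 41.6 and 70.6 CPM elsewhere. Nearly all of the sum elsewhere, 41.4 to 69.9 CPM, was the row of Amy1, which also holds Rnpc3, so it need not be salivary. The members' values are also given without recombined 3 and 4 and without the libraries with salivary transcripts. Without the latter, recombined 3 and 4, which stood apart, are the only recombined libraries left.

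The letters upstream of the start sites are shown for Ephb1, Ephb4 and Efnb2, the members that passed the test against wild type. They are the 250 bases before the start, from RefSeq on build GRCm38.p6, written 5′ to 3′ on the strand of the gene. RefSeq windows were found for 7 of the 8 members, and Efnb3 was not matched. Capitals mark the letters CCACCC, the core of the site bound by GLI, the transcription factors of the Hedgehog pathway, here read on the opposite strand as GGGTGG. Ephb1 lies on the minus strand at chr9:102354694-102354943, Ephb4 on the plus strand at chr5:137349859-137350108 and Efnb2 on the minus strand at chr8:8661243-8661492.
Ephb1: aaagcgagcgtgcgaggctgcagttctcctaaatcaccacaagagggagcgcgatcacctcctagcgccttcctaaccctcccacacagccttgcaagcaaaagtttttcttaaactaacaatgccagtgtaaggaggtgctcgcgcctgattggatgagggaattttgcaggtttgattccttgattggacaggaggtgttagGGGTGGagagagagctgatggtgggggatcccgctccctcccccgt
Ephb4: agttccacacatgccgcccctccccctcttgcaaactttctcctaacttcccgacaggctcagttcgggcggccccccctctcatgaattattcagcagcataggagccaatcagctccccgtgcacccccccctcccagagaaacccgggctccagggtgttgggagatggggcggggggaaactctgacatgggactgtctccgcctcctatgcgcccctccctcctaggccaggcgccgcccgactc
Efnb2: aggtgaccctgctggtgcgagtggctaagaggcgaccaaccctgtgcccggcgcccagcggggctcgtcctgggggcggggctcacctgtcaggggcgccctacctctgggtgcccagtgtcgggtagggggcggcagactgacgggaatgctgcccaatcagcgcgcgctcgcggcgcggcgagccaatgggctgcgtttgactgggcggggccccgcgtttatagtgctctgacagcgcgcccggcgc

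The 3 windows differ in base composition. G and C made up 54.0% of the Ephb1 window, 64.0% of the Ephb4 window and 72.0% of the Efnb2 window, and the dinucleotide CG occurred 10, 12 and 27 times in them, in that order. Over the full 300-base RefSeq windows, which run 50 bases past the start, the longer GLI site GACCACCCA was searched on both strands and was found in 0 of the 7 members and in 80 of 32544 promoters (0.246%). Its core CCACCC, which the longer site contains, was found in 3 of the 7 members and in 31.6% of all promoters. The core stood 46 bases before the start of Ephb1 and 197 bases before that of Ephb3 on the opposite strand, and 69 bases before that of Efnb1 on the same strand. A match describes these letters only.

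Levels between genes were compared as CPM per kilobase of exon. Efnb2 was the most abundant of the 8 genes in every group, at 30.9 ± 10.3 CPM per kilobase in recombined, 13.3 ± 4.35 in unrecombined and 10.1 ± 2.57 in wild type libraries (SD, n = 4 each). Ephb3 was the second, at 8.95 ± 3.17, 8.19 ± 3.66 and 7.15 ± 1.48 CPM per kilobase in the same order of groups, and Ephb4 the third, at 4.76 ± 1.66, 2.34 ± 0.250 and 1.87 ± 0.667. The ranges of Efnb2 and Ephb3 did not overlap in recombined libraries, but did in unrecombined and wild type libraries. Ephb3 and Ephb4 were apart in unrecombined and wild type libraries and overlapped in recombined ones.

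Ephb1 changed its place in this order. It was the fourth in recombined libraries at 2.76 ± 1.56 CPM per kilobase, next to Efnb1 at 2.64 ± 1.00, and the sixth in unrecombined libraries at 0.258 ± 0.125 and in wild type libraries at 0.394 ± 0.188, where its range overlapped that of Ephb2. Neighbours from the third to the eighth place overlapped throughout in recombined libraries. The lowest gene was Ephb2 in recombined libraries, at 0.366 ± 0.371 CPM per kilobase, and Efnb3 in unrecombined and wild type libraries, at 0.0884 ± 0.0734 and 0.0643 ± 0.0605.

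**Figure D1:**
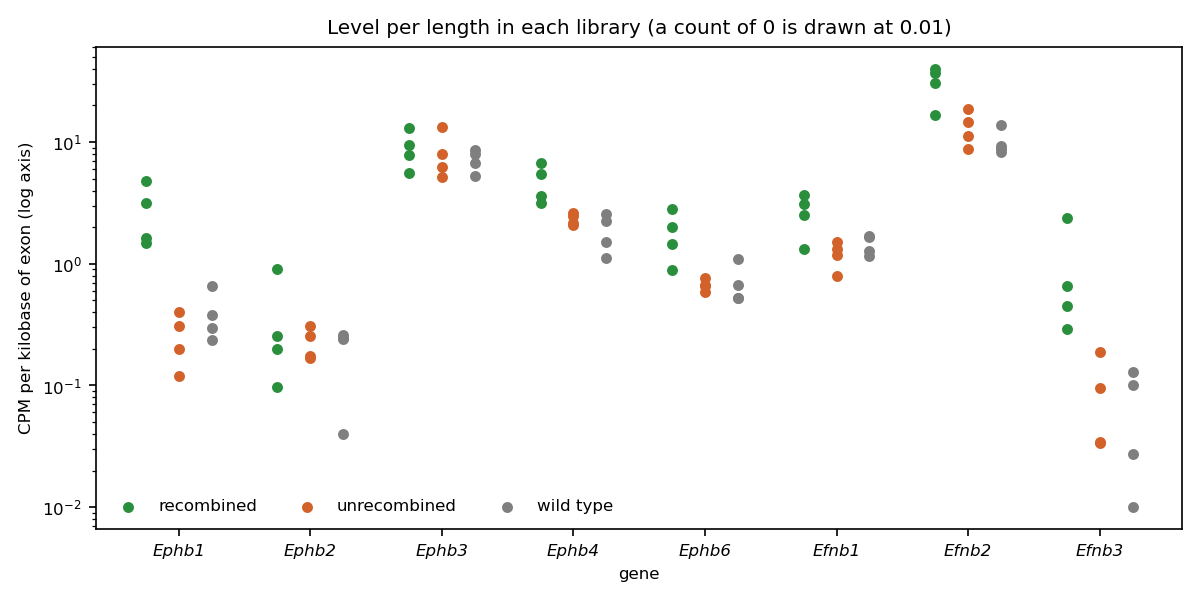
Level of the 8 genes per length in each of 12 libraries, as CPM per kilobase of exon on a log axis, with 1 point per library and recombined, unrecombined and wild type libraries side by side. Efnb2 lies highest and Ephb3 next in every group, and a count of 0 is drawn at 0.01. Ephb1 lies between 1.47 and 4.80 in recombined libraries but at or below 0.661 in the others.

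Expressed as shares of the summed receptor level per length, Ephb3 made up 48.4% ± 14.4 in recombined libraries, against 68.1% ± 8.90 in unrecombined and 69.2% ± 7.75 in wild type libraries (SD, n = 4 each). The share of Ephb1 was 15.2% ± 8.22 in recombined libraries, against 2.37% ± 1.35 in unrecombined and 3.88% ± 1.73 in wild type libraries, and its lowest recombined share of 6.41% exceeded the highest share of 6.04% in the other groups. Ligand transcripts were mostly Efnb2 in all groups, with shares of 89.7% ± 4.08, 91.0% ± 1.85 and 86.7% ± 2.89 in recombined, unrecombined and wild type libraries. The receptors together summed to 18.6 ± 3.48 CPM per kilobase in recombined, 11.7 ± 3.54 in unrecombined and 10.3 ± 1.70 in wild type libraries. The ligands summed to 34.5 ± 11.3, 14.6 ± 4.55 and 11.6 ± 2.67.

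Recombined against wild type libraries compare SmoM2-positive cells with cells of mice without Cre. Ephb1, Ephb4 and Efnb2 rose, so 3 of the 8 members passed the test upward and none downward, where 6.55% of all loci passed in either direction and 4.17% upward. The 5 other members had positive log2 fold changes that missed the threshold. The median log2 fold change of the 8 was 1.35, beside -0.02 over all loci tested. In 4 of the 8 (Ephb1, Ephb4, Efnb2 and Efnb3) each recombined library exceeded each wild type library, which held for 6.33% of all loci. Efnb3 had enough counts to be tested only through its recombined libraries. Its lack of overlap, its positive change and its part in the median were thus partly set by the filter. The 8 members were also chosen with earlier results of these data known, so the counts and the median are no independent test.

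Recombined against unrecombined libraries compare green and red cells of the same genotype and share the recombined libraries with the first comparison. Ephb1 and Efnb2 rose, 2 of the 8 members, where 5.22% of all loci passed in either direction and 3.08% upward. The median of the 8 was 1.18, beside -0.01 over all loci. Every recombined library exceeded every unrecombined one for Ephb1, Ephb4, Ephb6 and Efnb3, 4 of 8, beside 5.57% of all loci. For Efnb3 the same limit of the filter applies, and for all 8 that of the choice. Unrecombined libraries against wild type, the third comparison, gave 0 calls of 8 and 0 of 14039 loci (0%) in edgeR, with 541 loci (3.85%) at an unadjusted p under 0.05, and DESeq2 and limma-voom called 76 and 18 loci. None of the 8 was without overlap there, beside 4.42% of all loci.

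**Figure D2:**
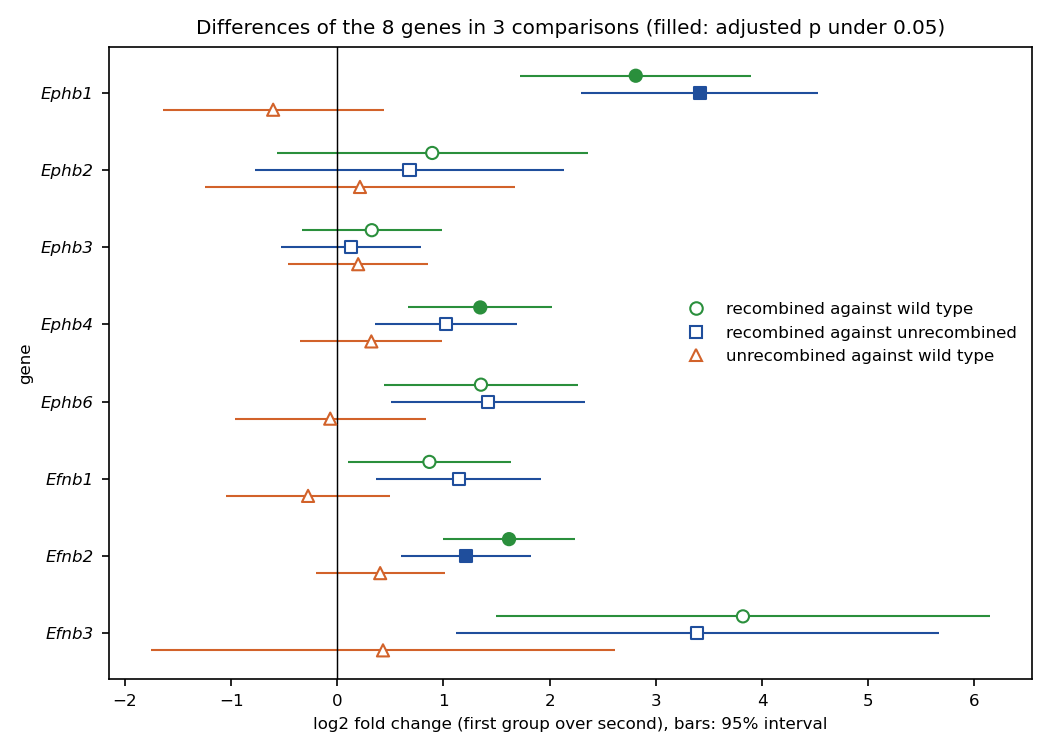
Log2 fold changes of the 8 genes in the 3 comparisons, first group over second, with 95% intervals from the edgeR fit and filled symbols where the adjusted p was under 0.05. Ephb1 and Efnb2 are filled in both comparisons of recombined libraries and Ephb4 in that against wild type, while Ephb3 lies near 0 and Efnb3 has the widest intervals.

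**Figure D3:**
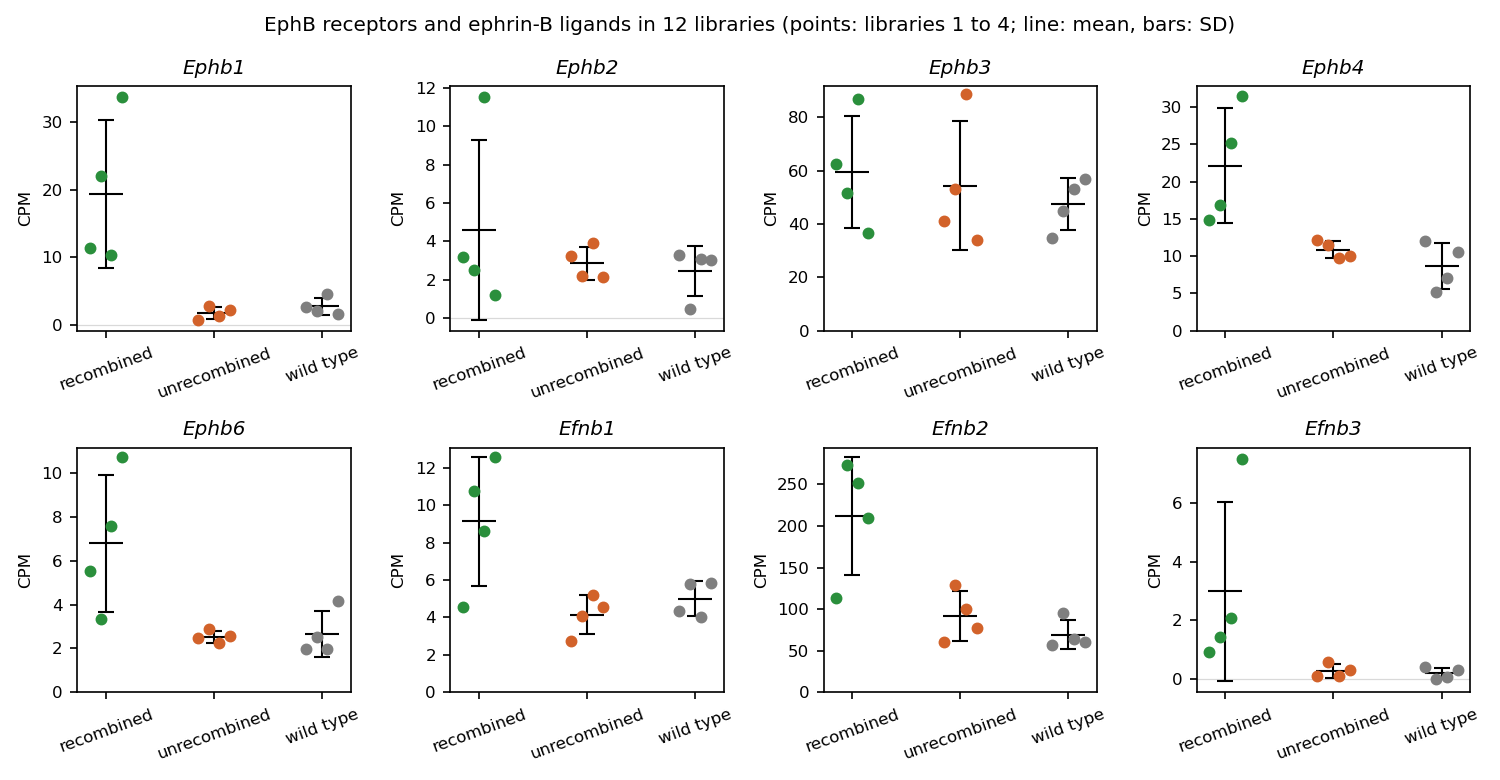
CPM of the 8 genes in each library, with points for libraries 1 to 4 of each group, a line at the mean and bars of 1 SD. Ephb1 lies at 10.3 CPM or above in recombined libraries and at 4.63 CPM or below elsewhere, whereas the groups overlap for Ephb2 and Ephb3.

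The mm9 starts given below are the lowest coordinates of the rows. For genes on the minus strand, such as Ephb1, Ephb2 and Efnb2, they are not the start sites. Ephb1 (mm9, chromosome 9, start 101824457) encodes a receptor known for axon guidance and cell positioning. It was at 11.3, 22.1, 10.3 and 33.6 CPM in recombined libraries 1 to 4, at 0.833, 2.83, 1.40 and 2.17 CPM in unrecombined libraries, and at 2.66, 2.09, 4.63 and 1.65 CPM in wild type libraries. The recombined libraries were all above the others, with recombined 4 highest and recombined 1 and 3 close together. The log2 fold change was 2.81 ± 0.506 (SE) against wild type, a 7.02-fold difference with a 95% interval of 1.73 to 3.90 on the log2 scale and an adjusted p of 0.00472. Against unrecombined libraries it was 3.41 ± 0.521, or 10.7-fold (adjusted p = 0.00128). Unrecombined libraries differed from wild type by -0.60 ± 0.485 (adjusted p = 1.00). The annotation places 152 exon bases of the long noncoding RNA Gm26846 on the opposite strand of Ephb1, and reads of the pair cannot be told apart if strand was not used in counting. Without recombined 3 and 4 the differences from wild type and unrecombined libraries were 2.60 (adjusted p = 0.0262) and 3.21 (adjusted p = 0.00655). Without the 5 libraries with salivary transcripts they were 2.92 (adjusted p = 0.0323) and 3.64 (adjusted p = 0.0386).

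Ephb2 (mm9, chromosome 4, start 136209524), a receptor known from intestinal and neural boundary formation, was scarce. Its level was 3.20, 2.49, 11.5 and 1.24 CPM in recombined libraries, 3.22, 2.19, 3.92 and 2.14 CPM in unrecombined libraries, and 3.27, 0.503, 3.10 and 3.01 CPM in wild type libraries. Recombined 3 was high and wild type 2 low, and the remaining libraries of the 3 groups overlapped. Fold changes on the log2 scale were 0.89 ± 0.683 against wild type (adjusted p = 0.511, interval -0.57 to 2.36) and 0.68 ± 0.680 against unrecombined libraries (adjusted p = 0.666). A single library decided these values, since without recombined 3 they were -0.10 and -0.30. They were 0.19 and -0.012 without recombined 3 and 4, and 1.06 and 1.09 without the libraries with salivary transcripts, with no call.

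Ephb3 (mm9, chromosome 16, start 21204867), often paired with EphB2 in epithelial compartments, was the main EphB transcript per length and did not separate the groups. It stood at 62.4, 51.8, 86.8 and 36.8 CPM in recombined libraries, at 41.3, 53.2, 88.9 and 34.2 CPM in unrecombined libraries, and at 34.8, 44.9, 53.1 and 57.0 CPM in wild type libraries. Library 3 was highest and library 4 lowest in both sorted fractions of the SmoM2;MMTV-Cre genotype. On the log2 scale the difference was 0.33 ± 0.307 against wild type, with an interval of -0.33 to 0.98 (adjusted p = 0.607), and 0.13 ± 0.307 against unrecombined libraries, with an interval of -0.53 to 0.79 (adjusted p = 0.882). In this fit a 2-fold increase, 1 on the log2 scale, lay outside both intervals, but only narrowly against wild type. Without recombined 3 and 4 the differences from wild type and unrecombined libraries were 0.26 ± 0.329 and 0.07 ± 0.331. Without the libraries with salivary transcripts they were 0.39 ± 0.479 and 0.03 ± 0.528, with wider spread.

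Ephb4 (mm9, chromosome 5, start 137791336) is the receptor that prefers ephrin-B2. Its row also holds Zan, a sperm protein gene on the opposite strand that shares 33 exon bases with it, so the counts may include reads of Zan. The row had 14.8, 16.9, 25.2 and 31.5 CPM in recombined libraries, 12.2, 11.5, 9.74 and 10.02 CPM in unrecombined libraries, and 11.96, 5.22, 7.03 and 10.5 CPM in wild type libraries. The 4 recombined libraries were above all others, with numbers 3 and 4 the highest. The log2 fold change was 1.35 ± 0.315 against wild type, or 2.54-fold (adjusted p = 0.0206), and 1.03 ± 0.313 against unrecombined libraries, which missed the threshold (adjusted p = 0.0796, but 0.0191 in DESeq2 and 0.0412 without recombined 1). The call against wild type ended without recombined 3 and 4 together (log2 fold change 0.86, adjusted p = 0.253), and also without recombined 4, wild type 2 or wild type 3 alone (adjusted p = 0.0579, 0.0566 and 0.0664). Without the libraries with salivary transcripts it was 1.56 (adjusted p = 0.0301). The value against unrecombined libraries was 0.55 without recombined 3 and 4 (adjusted p = 0.623) and 1.55 without the libraries with salivary transcripts (adjusted p = 0.0611).

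Ephb6 (mm9, chromosome 6, start 41555480) encodes a receptor whose kinase domain is inactive. It was at 5.52, 3.34, 7.59 and 10.7 CPM in recombined libraries, at 2.46, 2.90, 2.23 and 2.55 CPM in unrecombined libraries, and at 1.98, 2.52, 1.96 and 4.16 CPM in wild type libraries. Recombined libraries all exceeded unrecombined ones, while recombined 2 was below wild type 4. Differences on the log2 scale were 1.35 ± 0.424 against wild type (adjusted p = 0.0759) and 1.42 ± 0.425 against unrecombined libraries (adjusted p = 0.0747), and neither passed. DESeq2 called both, at adjusted p of 0.0154 and 0.0118, and so did edgeR without recombined 2, at 0.0442 and 0.0391. Without recombined 3 and 4 they were 0.73 (adjusted p = 0.540) and 0.80 (adjusted p = 0.569), and without the libraries with salivary transcripts 1.80 (adjusted p = 0.0766) and 1.96 (adjusted p = 0.114).

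Among the ligands, Efnb1 (mm9, chromosome X, start 96331468) is the X-linked member, known for sorting of cells that do and do not express it. It was at 4.54, 10.8, 8.61 and 12.6 CPM in recombined libraries, at 2.72, 4.07, 5.18 and 4.55 CPM in unrecombined libraries, and at 4.36, 5.77, 4.01 and 5.84 CPM in wild type libraries. Recombined 1 lay within the other groups, and recombined 2, 3 and 4 lay above them. In log2 terms the change was 0.87 ± 0.360 against wild type (adjusted p = 0.186) and 1.14 ± 0.362 against unrecombined libraries (adjusted p = 0.0920), so no call was made. Without recombined 1 the second value was 1.36, with an adjusted p of 0.0269, and DESeq2 with all libraries gave an adjusted p of 0.0233. Against wild type and unrecombined libraries it was 0.67 and 0.95 without recombined 4, 0.61 and 0.90 without recombined 3 and 4 (adjusted p = 0.598 and 0.448), and 1.20 and 1.15 without the libraries with salivary transcripts (adjusted p = 0.119 and 0.215).

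Efnb2 (mm9, chromosome 8, start 8617438), the preferred ligand of EphB4, had the most counts of the 8. It was at 114, 274, 252 and 209 CPM in recombined libraries, at 60.2, 129, 100.1 and 76.8 CPM in unrecombined libraries, and at 57.0, 95.1, 64.2 and 60.2 CPM in wild type libraries. Each recombined library exceeded each wild type library, and recombined 1 was below unrecombined 2. The log2 fold change was 1.62 ± 0.290 against wild type, or 3.07-fold (adjusted p = 0.00465, interval 1.00 to 2.24). Against unrecombined libraries it was 1.21 ± 0.287, or 2.32-fold (adjusted p = 0.0231). Libraries numbered alike in these groups deviated together, and in each of the 4 pairs the recombined library was higher, by 0.91, 1.09, 1.33 and 1.44 in log2(CPM + 0.5). Without recombined 3 and 4 the differences were 1.49 against wild type (adjusted p = 0.0677) and 1.10 against unrecombined (adjusted p = 0.213). The call against unrecombined also ended without any 1 of recombined 2, 3 or 4 or unrecombined 1, 3 or 4 (adjusted p of 0.0506 to 0.0787), and without the libraries with salivary transcripts the values were 1.97 (adjusted p = 0.00246) and 1.41 (adjusted p = 0.0149).

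Efnb3 (mm9, chromosome 11, start 69367593), a ligand best known from the midline of the nervous system, was nearly undetected outside recombined libraries. Counts were 31, 39, 39 and 182 in recombined libraries, 3, 16, 3 and 9 in unrecombined libraries, and 12, 0, 2 and 9 in wild type libraries. In CPM these were 0.926, 1.43, 2.10 and 7.50 in recombined, 0.109, 0.603, 0.108 and 0.306 in unrecombined, and 0.409, 0, 0.0873 and 0.323 in wild type libraries, and the count of 0 in wild type 2 allows a level of up to 0.116 CPM. Recombined libraries were above all others, and recombined 4 was far above the rest of its group. The gene passed the count filter only through the recombined libraries. The log2 fold change was 3.82 ± 1.08 against wild type, with an interval of 1.49 to 6.15 and an adjusted p of 0.0509, just above the threshold. Against unrecombined libraries it was 3.39 ± 1.06 (adjusted p = 0.0877, but 0.00743 in DESeq2 and 0.0481 without wild type 2). The value against wild type fell under the threshold in DESeq2 (adjusted p = 0.00179), without recombined 1 (0.0367) and without the libraries with salivary transcripts (0.0427), and without recombined 3 and 4 it was 2.48 (adjusted p = 0.429). Against unrecombined libraries it was 2.06 without recombined 3 and 4 (adjusted p = 0.613), 2.38 without recombined 4 alone and 4.53 without the libraries with salivary transcripts (adjusted p = 0.0736).

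The descriptions number the libraries in 2 series, beginning with 23 and 24, which split each group: recombined and unrecombined 1 and 2 and wild type 1 to 3 are in the first. Within the series the recombined minus wild type difference in log2(CPM + 0.5) was 2.23 and 3.16 for Ephb1, 1.00 and 1.38 for Ephb4, and 1.32 and 1.92 for Efnb2. The recombined minus unrecombined difference was 2.96 and 3.09 for Ephb1, 1.00 and 1.38 for Efnb2, and 0.41 and 1.47 for Ephb4. Directions were the same in both series for Ephb1, Ephb4 and Efnb2. For Ephb1 and Ephb4, and for Efnb2 against wild type, the groups did not overlap, so no split could turn the sign. Ephb3 against wild type did turn, at 0.38 and -0.011. The second series holds 1 wild type library. Taken by number, the recombined library exceeded the unrecombined one in 4 of 4 pairs for Ephb1, by 2.50 to 3.67, for Ephb4, by 0.27 to 1.61, for Ephb6, by 0.17 to 1.88, for Efnb1, by 0.65 to 1.37, and for Efnb3, by 0.81 to 3.31. Pairs of Ephb2 and Ephb3 went both ways, between -0.60 and 1.44 and between -0.04 and 0.59. For Ephb1, Ephb4, Ephb6 and Efnb3 the groups did not overlap, so 4 of 4 pairs could not come out otherwise and adds nothing to that. Efnb3 also passed the count filter only through its recombined libraries. The share of all loci with 4 of 4 pairs was not counted.

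Unrecombined against wild type libraries gave no call in any member. Log2 fold changes were 0.21 for Ephb2, 0.20 for Ephb3, 0.32 for Ephb4, -0.07 for Ephb6, -0.28 for Efnb1, 0.40 for Efnb2 and 0.43 for Efnb3, beside the -0.60 of Ephb1, with SEs between 0.283 for Efnb2 and 1.02 for Efnb3. Every adjusted p was 1.00 to 3 digits. Of these values, only those of Ephb1, Ephb4 and Efnb2 kept their sign under all alternatives run. The interval of Efnb2, -0.20 to 1.01, still includes a difference as large as 2-fold.

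Markers of other cell populations moved between the groups as well. Over 14 basal and myoepithelial markers the summed level was 2623 to 9124 CPM in recombined libraries, 979 to 1700 CPM in unrecombined libraries and 1410 to 1683 CPM in wild type libraries. Of these 14, 12 rose against wild type and 14 against unrecombined libraries. All 8 members were on average highest in the recombined libraries, and so was that sum. Across the 12 libraries, Pearson's r of log2 levels with the basal sum was 0.94 for Ephb1, 0.90 for Efnb3, 0.88 for Efnb1, 0.85 for Efnb2, 0.82 for Ephb4 and 0.82 for Ephb6, but 0.14 for Ephb2 and 0.07 for Ephb3. Other marker sums gave values of like size, among them -0.88 for Ephb4 with the hormone-sensing sum, -0.85 and -0.83 for Ephb1 with the endothelial and fibroblast sums, and -0.83 for Efnb1 with the endothelial sum. These are descriptions over libraries that share their groups and depths. In bulk RNA, more cells of a type and more RNA per cell cannot be told apart, and the part of the basal population in the differences was not tested.

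**Figure D4:**
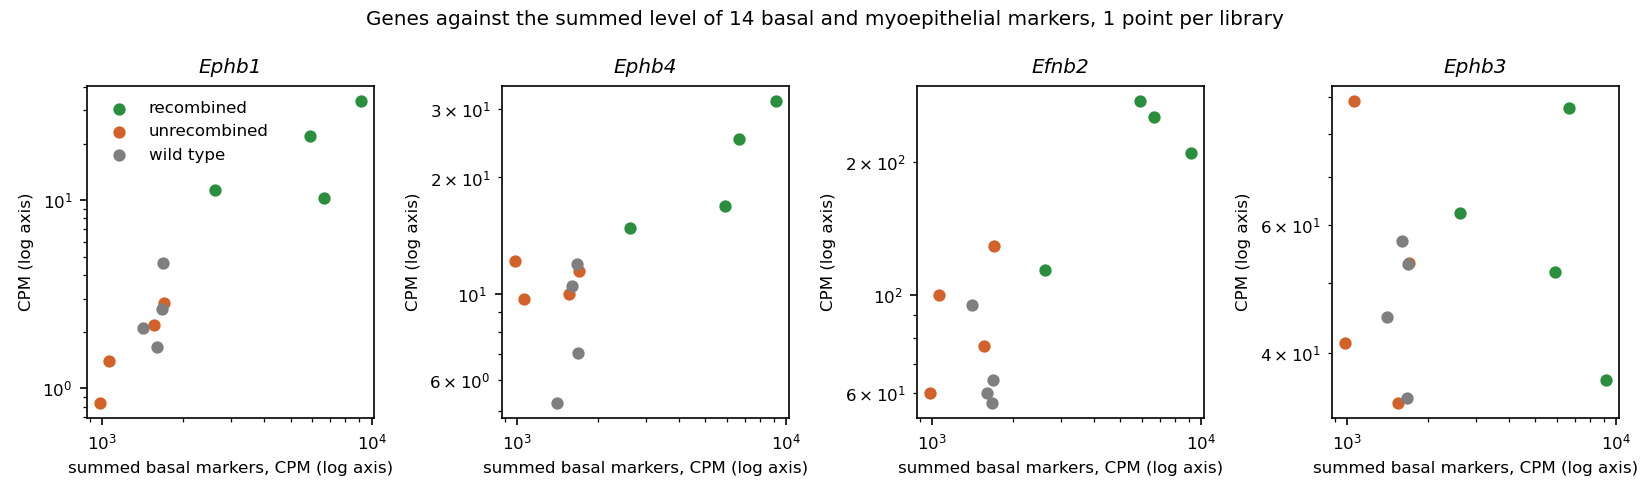
CPM of Ephb1, Ephb4, Efnb2 and Ephb3 against the summed CPM of 14 basal and myoepithelial markers, both on log axes, with 1 point per library coloured by group. Recombined libraries lie to the right, at 2623 to 9124 CPM of basal markers, and are highest for Ephb1 and Ephb4, whereas Ephb3 shows no such order.

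Hormone-sensing luminal markers ran the other way, at 683 to 1869 CPM in recombined, 2689 to 4462 CPM in unrecombined and 3182 to 6053 CPM in wild type libraries, and 7 of 10 fell against wild type and 3 of 10 against unrecombined libraries. General luminal markers were at 3329 to 6139, 4301 to 9657 and 5220 to 9167 CPM in recombined, unrecombined and wild type libraries, and luminal progenitor markers at 1799 to 6427, 3607 to 6285 and 2708 to 4057 CPM. Fibroblast markers, summed over 12 genes, were at 331 to 967 CPM in recombined, 5483 to 7772 CPM in unrecombined and 1563 to 3695 CPM in wild type libraries, and 9 of the 12 fell against wild type and 10 against unrecombined libraries. No basal, fibroblast or endothelial marker was at 0 in every library. Endothelial markers, which bear on Efnb2 and Ephb4 as vascular genes, summed over 13 genes to 78.1 to 145 CPM in recombined libraries, to 185 to 293 CPM in unrecombined libraries and to 135 to 214 CPM in wild type libraries. Efnb2 and Ephb4, like the other members, were on average highest in the group with the lowest mean endothelial sum. However, recombined 1 at 145 CPM overlapped wild type 1 at 135 CPM. Of 12 endothelial markers tested, none rose and 1 fell against wild type. Macrophage and leukocyte markers were at 16.9 to 29.2, 18.3 to 41.9 and 40.8 to 121 CPM in the same order of groups, Schwann and nerve markers at 57.5 to 87.7, 56.1 to 98.5 and 70.7 to 100.1 CPM, and adipocyte markers at 23.4 to 113, 58.2 to 129 and 13.2 to 71.1 CPM. Pericyte and vascular smooth muscle markers were at 82.7 to 176, 99.3 to 127 and 63.4 to 112 CPM. Their part in the results was not tested.

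Several members also varied together across the 12 libraries, in part only through the differences between groups. The closest pair was Ephb4 and Efnb3, with a Pearson's r of 0.95 in log2 CPM and of 0.85 after the group means were removed. Efnb1 and Efnb2 correlated at 0.81, and at 0.72 after removal of the group means. Ephb1 and Efnb3 reached 0.83 but only 0.49 within groups, and Ephb1 and Efnb2 0.80 and 0.38. In other pairs little was left within groups. Ephb4 and Efnb2 gave 0.69 and -0.08, Ephb1 and Ephb4 0.71 and 0.09, and Ephb1 and Ephb6 0.72 and -0.06. Ephb6 and Efnb2 gave 0.67 and -0.02, and Efnb2 and Efnb3 0.73 and 0.09. Ephb2 and Ephb3 correlated at 0.58, and at 0.55 within groups, while Ephb3 with Ephb1, Ephb4 or Efnb3 gave 0.04, 0.08 and 0.00. The points share library, depth and cell composition, so the values describe these libraries.

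Other loci most like each member were found by the same measure over the 12 libraries, among 7915 or 7916 tested loci whose log2 CPM averaged 2 or more, up to 3 for each. They were Pvrl1, Rbpms and Lamb3 for Ephb1 (r of 0.963, 0.959 and 0.949), Snora81, Tmc7 and Snx29 for Ephb2 (0.928, 0.915 and 0.907), and Slc2a1, St3gal1 and Rabgef1 for Ephb3 (0.928, 0.917 and 0.913). For Ephb4 they were Pja1, Obsl1 and Col16a1 (0.964, 0.962 and 0.948), and for Ephb6 Rnf187, Socs3 and Nfil3 (0.938, 0.937 and 0.933). For the ligands they were Tes and Fblim1 for Efnb1 (0.918 and 0.913), Srgap1, Chl1 and Smtn for Efnb2 (0.981, 0.955 and 0.951), and Mia1, Lama1 and Gprasp2 for Efnb3 (0.969, 0.960 and 0.957). No locus was shared between these sets.

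The related EphA receptors and ephrin-A ligands, whose ligands are held to the membrane by a lipid anchor rather than spanning it, mostly moved upward too. Of 14 listed, 9 were tested, and Epha6, Epha8, Epha10 and Efna3 had too few counts. Epha5 had counts in too few libraries. It was at 5.53 CPM in recombined 2, 13.6 CPM in unrecombined 2 and 7.24 CPM in wild type 2, and at 0.254 CPM or less elsewhere. Those libraries also had the highest salivary transcript sums, whose part was not tested. Against wild type, Epha7 and Efna5 rose and Epha3 fell, where 6.55% of all loci passed, and the median log2 fold change of the 9 was 0.66, beside -0.02 over all loci. Against unrecombined libraries, Epha7 rose and Epha3 fell, where 5.22% of all loci passed, with a median of 0.53, beside -0.01 over all loci. In both comparisons 8 of the 9 had positive log2 fold changes, and Epha3 was the exception, so the upward direction was not particular to the EphB and ephrin-B genes. No gene of the list passed in unrecombined against wild type libraries.

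Epha7 was at 63.0, 93.6, 91.7 and 79.9 CPM in recombined libraries, at 43.6, 47.2, 32.8 and 43.4 CPM in unrecombined libraries, and at 30.9, 24.7, 24.1 and 22.4 CPM in wild type libraries. The 3 groups did not overlap. Its log2 fold change was 1.68 ± 0.185 against wild type (adjusted p = 0.000201) and 0.97 ± 0.182 against unrecombined libraries (adjusted p = 0.00531), and the difference of unrecombined from wild type libraries, 0.71 ± 0.181, did not pass (adjusted p = 0.460). The call against unrecombined libraries ended without recombined 3 and 4 (0.91, adjusted p = 0.0625) and without the libraries with salivary transcripts (1.20, adjusted p = 0.0502). Epha3 had 0.269, 0.513, 0 and 0.0412 CPM in recombined libraries, 11.2, 11.7, 14.6 and 12.02 CPM in unrecombined libraries, and 5.14, 3.95, 4.45 and 4.84 CPM in wild type libraries. Its log2 fold changes were -4.38 ± 0.660 against wild type (adjusted p = 0.00149) and -5.80 ± 0.694 against unrecombined libraries (adjusted p = 0.000212). They were -3.56 and -4.98 without recombined 3 and 4, and -7.40 and -8.88 without the libraries with salivary transcripts, and kept their calls. The order of the groups for Epha3 was that of the fibroblast marker sums given above, whose part was not tested. Efna5 averaged 94.6 ± 14.3 CPM in recombined and 57.7 ± 12.6 CPM in wild type libraries (SD, n = 4 each), a log2 fold change of 0.71 ± 0.191 (adjusted p = 0.0397). It lost its call without any 1 of recombined 1, 3 or 4, unrecombined 1 or 4, or wild type 2 or 4 (adjusted p of 0.0504 to 0.129), and under upper quartile scaling (0.0690) or with no filter (0.0537). The call also ended with library series as covariate (0.0740) and with the 2 groups alone (0.0677). The same held without recombined 3 and 4 (0.268) and without the libraries with salivary transcripts (0.0910).

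**Figure D5:**
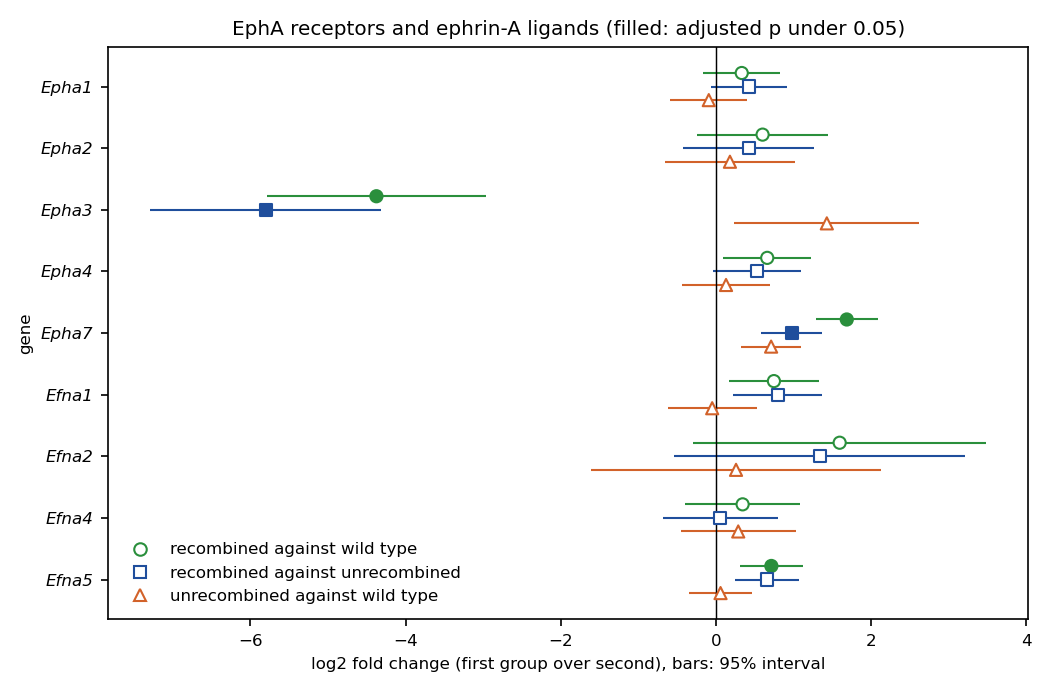
Log2 fold changes of the 9 tested EphA receptors and ephrin-A ligands in the 3 comparisons, first group over second, with 95% intervals and filled symbols where the adjusted p was under 0.05. Epha3 lies at -4.38 and -5.80 in the comparisons of recombined libraries and Epha7 at 1.68 and 0.97, and the rows of Epha1 and Efna4 also hold Zyx and Adam15.

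Of 49 listed genes of EphB forward and ephrin-B reverse signalling, 47 were tested. Against wild type, 6 rose, 2 fell and 39 did not pass, where 6.55% of all loci passed, with a median log2 fold change of 0.12, beside -0.02 over all loci. Against unrecombined libraries, 3 rose, 2 fell and 42 did not pass, where 5.22% of all loci passed, with a median of 0.06, beside -0.01. None passed in unrecombined against wild type libraries.

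Adam10, a membrane protease known to cleave ephrins at cell contacts, fell in both comparisons. It was at 205, 181, 126 and 188 CPM in recombined libraries, at 333, 327, 304 and 399 CPM in unrecombined libraries, and at 387, 573, 388 and 471 CPM in wild type libraries. Its recombined libraries were below all others, with log2 fold changes of -1.38 ± 0.181 against wild type (adjusted p = 0.000540) and -0.96 ± 0.179 against unrecombined libraries (adjusted p = 0.00531). Reln, a secreted protein reported to bind ephrin-B, rose in both, at 71.6, 98.2, 115 and 185 CPM in recombined libraries, 11.6, 13.0, 6.97 and 18.4 CPM in unrecombined libraries, and 26.5, 3.99, 5.41 and 18.03 CPM in wild type libraries. Its log2 fold changes were 3.12 ± 0.555 against wild type (adjusted p = 0.00478) and 3.23 ± 0.558 against unrecombined libraries (adjusted p = 0.00356).

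Also higher against wild type were Ptpn13, a phosphatase that acts on ephrin-B (1.17 ± 0.254, adjusted p = 0.0136), Tln1, which links integrins to actin (1.08 ± 0.236, adjusted p = 0.0143), and Itsn1, an exchange factor for Cdc42 (1.02 ± 0.239, adjusted p = 0.0205). The other 2 that rose were Fyn (1.02 ± 0.249, adjusted p = 0.0252), a Src family kinase, and Tiam1 (1.20 ± 0.312, adjusted p = 0.0339), both named here with their values known. Nck2, an adaptor that binds activated receptors, was lower (-0.81 ± 0.185, adjusted p = 0.0186). Against unrecombined libraries, Tln1 (1.16 ± 0.236, adjusted p = 0.00959) and Tiam1, an exchange factor for Rac (1.29 ± 0.313, adjusted p = 0.0269), rose and Grb10, an adaptor reported to bind EphB1, fell (-0.87 ± 0.163, adjusted p = 0.00531). Without recombined 3 and 4 together a single gene of the list passed in each comparison, Adam10 against wild type (-1.25, adjusted p = 0.00839) and Grb10 against unrecombined libraries (-0.99, adjusted p = 0.0200). Tln1 was then 0.52 and 0.61 against wild type and unrecombined libraries, and Tiam1 0.84 against unrecombined libraries. Without the libraries with salivary transcripts, Adam10 and Grb10 missed the threshold against unrecombined libraries (adjusted p = 0.0534 and 0.0955). The calls of Nck2 and Itsn1 against wild type and of Tiam1 against unrecombined libraries also ended without some single libraries, with adjusted p of up to 0.0721, 0.0678 and 0.0880.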

How the data were processed

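Reads were handled by the authors with STAR and HTSeq 0.3.1 on mm9, per the submitters' processing notes. Options, strand setting and annotation are not given in the sources used here. Raw read counts per locus were deposited, per the file headers and the values, and rows that name several loci (at most 0.101% of a library) were not tested. Counts were scaled by TMM and tested in edgeR 4.0.16 (R 4.3.3) by the two-sided quasi-likelihood F test with robust dispersions, 12 libraries in 1 fit, filterByExpr, and Benjamini-Hochberg adjustment over 14039 loci at a threshold of 0.05. Intervals are t intervals of the fit. Exon lengths came from GENCODE M21 by name, on another build than the counts, and no coordinates were mixed. Alternatives were DESeq2 1.42.0 (test and size factors), limma-voom 3.58.1, upper quartile scaling, other filters, a replicate block, library series, 2 groups alone and libraries left out. The script was tested on simulated counts.

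Recombined and unrecombined libraries of the same number deviated together (r of 0.239, 0.399, 0.244 and 0.298, against -0.24 to -0.03 between numbers), which was taken as pairing from the data. With wild type, number 1 did not (-0.03 and 0.00). Numbers 2 to 4 gave 0.109 to 0.185 with recombined libraries, against -0.147 to 0.169 between numbers. With unrecombined libraries they gave 0.157 to 0.312, against -0.247 to 0.337. Only number 2 with recombined libraries, at 0.185, lay above the range between numbers. The main test did not use the pairing, which entered the tests only as the replicate block. The 8 members and all gene lists were chosen with earlier results of these data known. Named genes are the 8 members, at most 6 genes per list and comparison past the threshold with the smallest adjusted p, 3 similar loci per member by the highest r, and Smo, Gli1, Ptch1 and Hhip as a check of the labels. For Efnb1, 1 similar locus is not reported here.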

Additional observations from a re-analysis of the deposited data

Results flagged for a closer look

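Ephb2 in wild type 2 stood at 0.503 CPM, far below the next wild type library at 3.01 CPM, with a gap of 0.906 of the range of the group. It was the only such library among the 24 groups of 4 tested, of which chance marks about 1 in 20. Without it the unrecombined minus wild type value of Ephb2 was -0.12 instead of 0.21 on the log2 scale. Rows that name several loci, which no comparison used, held 9 reads with the symbol Efnb2 in unrecombined 1 and 0 reads in the wild type libraries.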

How the results depend on the processing

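Ephb1 kept its call in both comparisons of recombined libraries under all 23 alternatives, with log2 fold changes of 2.40 to 3.18 against wild type and 3.00 to 3.72 against unrecombined libraries. Efnb2 lay between 1.47 and 1.97 against wild type and lost its call there only without recombined 3 and 4. With the 2 groups alone, Ephb4 against wild type and Efnb2 against unrecombined libraries lost theirs (adjusted p = 0.0600 and 0.0516), and with the size factors of DESeq2 Efnb3 gained one against wild type (0.0491). Members called against wild type numbered 3, but 5 with DESeq2, 1 without recombined 3 and 4 and 2 to 4 with 1 library left out. Against unrecombined libraries they numbered 2, but 6 with DESeq2, 1 without recombined 3 and 4, 1 with the 2 groups alone and 1 to 4 with 1 library left out. DESeq2 added Ephb4, Ephb6, Efnb1 and Efnb3 there. Efnb3, which DESeq2 called in both comparisons, was open to a call only through its recombined libraries, so its calls are no support. With a replicate block the members called were 3, 2 and 0 in the 3 comparisons and no call changed.

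Loci called against wild type numbered 920, but 1614 with DESeq2, 248 without recombined 3 and 4, 594 with the 2 groups alone and 502 to 1217 with 1 library left out. Against unrecombined libraries they numbered 733, but 1349, 282 and 449 to 1044 under DESeq2, without recombined 3 and 4 and with 1 library left out. In unrecombined against wild type libraries they numbered 0, but 76 with DESeq2, 18 with limma-voom, 1 with the replicate block and 8 with the 2 groups alone. The EphA and ephrin-A list gave 2 calls against unrecombined libraries, but 4 with DESeq2 and 1 each without recombined 3 and 4 and without the salivary libraries, an alternative chosen after seeing the data. DESeq2 gave 1 call of that list in unrecombined against wild type libraries. The signalling list gave 8 calls against wild type, but 1 without recombined 3 and 4, 4 with the 2 groups alone and 5 to 11 with 1 library left out, and 5 against unrecombined libraries, but 8 with DESeq2, 1 without recombined 3 and 4 and 4 to 8 with 1 library left out. Fewer libraries enter where libraries are left out, and the other causes were not tested.

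Signs turned in values that never passed. With 1 library left out, Ephb2 ran from -0.10 to 1.21 against wild type and from -0.30 to 0.99 against unrecombined, Ephb3 from -0.10 to 0.47 against unrecombined, and, in unrecombined against wild type, Ephb2 from -0.12 to 0.38, Ephb3 from -0.14 to 0.37, Ephb6 from -0.18 to 0.24 and Efnb3 from -0.23 to 1.00. Ephb2 was -0.012 against unrecombined without recombined 3 and 4. Without the salivary libraries, Ephb2, Efnb1 and Efnb3 were -0.035, 0.047 and -0.39 in unrecombined against wild type, and Ephb6 was 0.018 there with the replicate block. The median SE over loci was 0.37, and Ephb2 and Efnb3, with mean counts of 83.5 and 28.8, had SEs of 0.679 and above.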
